A study of Rattus norvegicus with 54 samples.

Results

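The transcripts of 10 regulators of cardiac gene expression were followed through the left ventricle of rats 1 week after surgery. They are the transcription factors Gata4, Gata6, Nkx2-5, Tbx5, Tbx20, Mef2a, Mef2c, Hand2 and Esrra, and the coactivator Ppargc1a. They were found by their symbols in the gene column of all 54 count tables and make up 10 of the 40319 genes listed. By the study's methods, all the animals were female athymic nude rats of the F344/NJcl-rnu/rnu strain, 8 weeks old at surgery. Sham animals had the chest operation alone, MI animals had a permanent ligation of the left anterior descending coronary artery, and MI + Cell Sheet animals had the same ligation followed by a bi-level sheet of human smooth muscle cells (SMC) and endothelial progenitor cells (EPC) laid on the epicardium over the ischemic area. Each of the 18 hearts, 6 in each treatment group, gave 1 library from an infarct zone (the anterior wall), 1 from a border zone (the lateral wall) and 1 from a remote zone (the septum), so that 9 groups of 6 libraries were compared. In sham hearts the zone names mark the matching wall. As the study describes them, all groups shared the rnu mutation and the lack of a thymus. The ligation was shared by both MI groups, and there was no group with a sheet but no ligation. Reads were aligned to the rat genome, and human transcripts of the sheet were not analysed here.

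GATA4, GATA6, NKX2-5, TBX5, TBX20, HAND2 and the MEF2 proteins bind one another as well as DNA, and together they switch on the contractile, conduction and natriuretic peptide genes of the heart muscle cell. ERRalpha, the product of Esrra, is an orphan nuclear receptor that turns on genes of fatty acid oxidation and the respiratory chain, and PGC-1alpha, the product of Ppargc1a, is the coactivator through which it and the PPAR receptors act. Several of the 10 are also made outside the heart muscle cell, as GATA4, GATA6 and HAND2 are in fibroblasts and MEF2A and MEF2C are in endothelial and smooth muscle cells. In tissue RNA, fewer cells of a type and less RNA in each cell cannot be told apart.

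Counts on genes ran from 12699204 to 23397754 per library, and each of the 10 genes was counted in every library, from 16 reads (Nkx2-5) to 6696 reads (Tbx20). CPM denotes a count divided by the TMM-scaled size of its library, and it is the unit of all levels below. All 10 passed the filter on low counts in all 9 comparisons. The labelled tissue held its marker genes: the 10 cardiomyocyte markers, all sarcomere genes (Tnnt2, Tnni3, Tnnc1, Actc1, Myl2, Myl3, Mybpc3, Actn2, Tcap and Ttn), were counted in every library. Their mean log2 CPM, used below as a cardiomyocyte score, had medians of 12.12 to 12.21 in the sham groups. 2 animals stood apart. Sham replicate 5 had a cardiomyocyte score of 10.80, 10.71 and 11.25 in its infarct, border and remote zone libraries. Its T cell marker score was 6.40, 6.66 and 6.12 against sham medians of 0.52, 0.045 and 0.20. The paper states that athymic animals make no mature T cells, and why this animal had such a score was not tested. Cell sheet replicate 1 had the lowest border score of all, 3.76. Its adipocyte marker score there, 5.30, was within the range of its group, with a median of 4.36 and a highest value of 6.01. This animal also had the lowest remote score of its group, 10.73, with a myofibroblast marker score of 7.26 against a group median of 4.05. Results are given with all libraries, and without these animals where that changed them.

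The stretches of 250 bases before the annotated starts of Ppargc1a, Mef2a and Nkx2-5 are printed because of motifs found in the members' windows searched. They hold a match to a loose pattern for sites of the MEF2 factors, which are members themselves, or a motif of the cyclic AMP pathway known to act on Ppargc1a. The sequences are those of RefSeq on the assembly GRCr8, and no coordinate of the count files, which were made on mRatBN7.2, was carried over to it. Windows of 300 bases, 250 before and 50 after the start, were found for 8 of the 10 members, with none for Gata4 and Mef2c. Capitals mark the matches: the cyclic AMP response element TGACGTCA in Ppargc1a, and the loose MEF2 pattern CTANNNNTA, where N is any base, in Mef2a and Nkx2-5.
Ppargc1a, chr14:63634058-63634307, + strand: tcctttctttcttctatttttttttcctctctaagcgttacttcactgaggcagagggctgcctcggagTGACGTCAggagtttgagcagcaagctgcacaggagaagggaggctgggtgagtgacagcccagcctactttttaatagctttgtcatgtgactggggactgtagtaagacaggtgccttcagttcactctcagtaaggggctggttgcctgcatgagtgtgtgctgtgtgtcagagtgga
Mef2a, chr1:130392163-130392412, - strand: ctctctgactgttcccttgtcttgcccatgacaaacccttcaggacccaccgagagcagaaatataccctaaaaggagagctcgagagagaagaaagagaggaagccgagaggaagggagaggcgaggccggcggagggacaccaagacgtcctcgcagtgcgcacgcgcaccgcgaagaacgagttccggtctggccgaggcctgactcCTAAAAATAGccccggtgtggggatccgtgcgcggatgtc
Nkx2-5, chr10:16848350-16848599, + strand: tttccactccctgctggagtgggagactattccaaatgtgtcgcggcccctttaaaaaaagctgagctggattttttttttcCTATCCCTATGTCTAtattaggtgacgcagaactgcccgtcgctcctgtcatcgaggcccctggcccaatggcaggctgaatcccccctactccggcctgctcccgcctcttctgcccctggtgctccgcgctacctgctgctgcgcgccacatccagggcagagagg

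Both strands were searched for 7 short motifs. The cyclic AMP response element lay at positions -181 to -174 from the Ppargc1a start, and 1.83% of the 33469 windows in the table hold it. The loose MEF2 pattern, which 22.4% of windows hold, was met in the other genes printed. In Mef2a the same stretch matched on both strands, at -40 to -32 from the start on the strand of the gene and at -39 to -31 on the other. In Nkx2-5 there were 2 overlapping matches, at -168 to -160 and -162 to -154, with TCCC and TGTC in place of the N letters. Because the pattern takes any base there, a match to it is not by itself a MEF2 site. The GATA motif AGATAA (11.6% of windows) was found in Hand2 and TGATAA (9.03%) in Tbx5. The ERR motif TCAAGGTCA (0.433%), the NKX motif TNAAGTG (11.5%) and the T-box motif AGGTGTGA (1.1%) were in none of the 8 windows, and none of the 7 was in those of Gata6, Tbx20 and Esrra. These matches describe the letters of the windows, and binding was not measured.

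The first comparison asked how the regulators stood in the untreated MI group against sham in each zone. In the infarct zone 9 of the 10 were lower, the exception being Mef2c, where 27.2% of the 15758 genes tested were called lower (edgeR quasi-likelihood test, adjusted p under 0.05 over all genes tested). The border zone had 7 of 10 lower against a background of 23.2%. The remote zone had 8 of 10 against 14.2%. None was higher in any zone. The median log2 fold change of the 10 was -0.81, -0.81 and -0.57 in the infarct, border and remote zone, beside -0.02, -0.02 and -0.04 for all genes tested. TMM scaling centred the genes near 0. Scaling to library size alone moved that centre by 0.26, 0.19 and 0.13. It raised the share of called genes that were higher from 45.5% to 67.1%, from 44.2% to 64.1% and from 45.1% to 68.6%. Under library size the 3 counts were 6, 4 and 6, and the log2 fold change of Mef2c was 0.028 in the infarct and 0.019 in the border zone in place of the values below 0 given here.

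**Figure D1:**
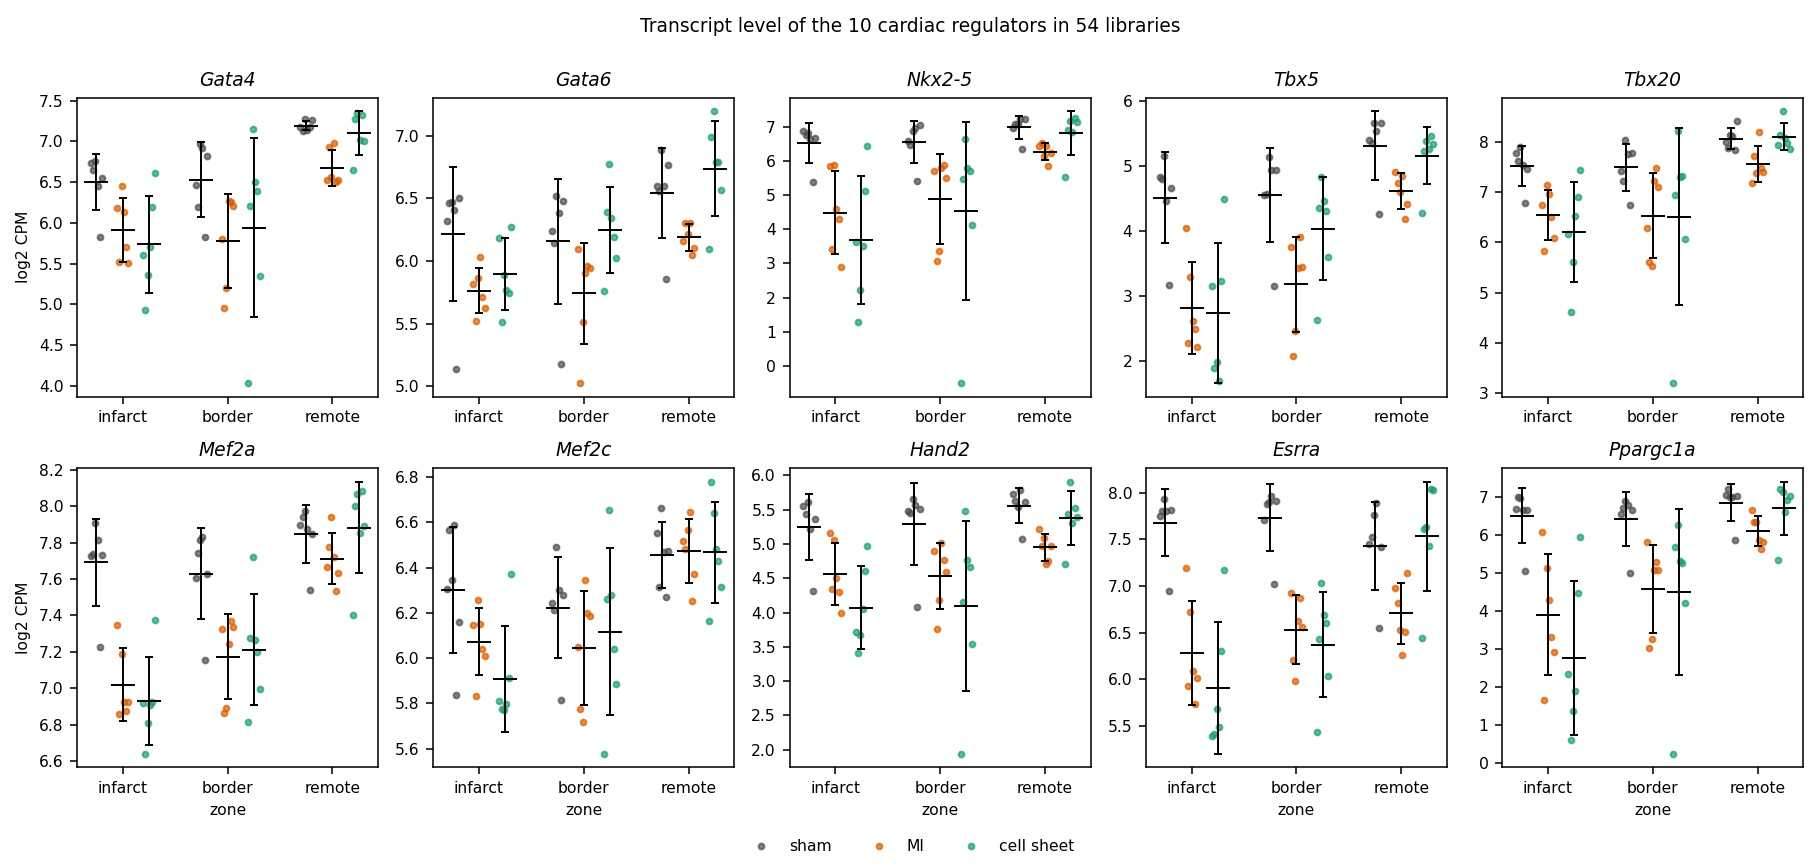
Level of each regulator (log2 CPM, 1 panel a gene, each with its own vertical axis) by zone and treatment. Points are libraries, the black bar is the mean and the whisker 1 SD (n = 6). In the infarct zone the sham points of 9 genes stand above all MI points once the lowest sham point, replicate 5, is left aside. Without that animal 22% of all genes tested were lower in MI without overlap. With all libraries the counts were 0 of the 10 and 5.41% of all genes.

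Among the GATA factors, zinc finger proteins at the top of the cardiac programme, Gata4 had a lowest, median and highest level of 56.8, 97.1 and 109 CPM in the sham infarct zone and 45.3, 61.1 and 87.3 CPM in MI, which was 1.48-fold lower (log2 fold change -0.57, SE 0.19, adjusted p = 0.0285). The remote zone sham libraries held 140.3, 145 and 154 CPM and the MI libraries 90.3, 93.2 and 126 CPM. Those 2 groups did not overlap, and Gata4 fell by 0.51 on the log2 scale (SE 0.10, adjusted p = 0.00332). It was lower in the border zone too (log2 fold change -0.72, SE 0.27, adjusted p = 0.0457). Gata6, its partner in muscle and in vascular cells, fell in the infarct zone from a sham median of 86.4 to 54.4 CPM (log2 fold change -0.51, SE 0.19, adjusted p = 0.0439) and in the remote zone from 96.8 to 72.8 CPM (log2 fold change -0.39, SE 0.13, adjusted p = 0.0498). It was not called in the border zone (log2 fold change -0.44, 95% interval -0.93 to 0.054, adjusted p = 0.137). Without sham replicate 5 Gata6 was called there, at -0.58 (adjusted p = 0.00965), and 28.9% of the genes tested were called lower in that fit.

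Nkx2-5, the homeodomain factor of the working and conducting heart muscle, was 3.27-fold lower in the MI infarct zone (log2 fold change -1.71, SE 0.49, adjusted p = 0.0124). The sham libraries held 41.3, 105 and 117 CPM and the MI libraries 7.34, 21.9 and 58.4 CPM, so that the MI libraries were spread over a wide range while 5 of the 6 sham libraries were close together. Its border zone levels were 42.2, 107 and 132 CPM in sham and 8.26, 48.3 and 59.3 CPM in MI (log2 fold change -1.39, SE 0.48, adjusted p = 0.0346). The step was smaller in the remote zone, from 81.1, 136 and 150.1 CPM to 58.0, 81.1 and 91.8 CPM (log2 fold change -0.73, SE 0.15, adjusted p = 0.00463).

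Tbx5, a T-box factor which acts with NKX2-5 and GATA4 on conduction and contractile genes, was 3.16-fold lower in the infarct zone, from 8.93, 26.5 and 35.5 CPM in sham to 4.54, 5.76 and 16.3 CPM in MI (log2 fold change -1.66, SE 0.37, adjusted p = 0.00419). It also fell in the border (log2 fold change -1.37, SE 0.36, adjusted p = 0.0118) and remote zones (log2 fold change -0.75, SE 0.20, adjusted p = 0.0182). Tbx20, a T-box factor needed to keep adult muscle cells in working order, was 1.92-fold lower in the infarct zone, with 109.7, 193 and 239 CPM in sham and 57.1, 99.7 and 141 CPM in MI (log2 fold change -0.94, SE 0.24, adjusted p = 0.00683). It was also lower in the remote zone (log2 fold change -0.48, SE 0.16, adjusted p = 0.0443) and was not called in the border zone (log2 fold change -0.83, 95% interval -1.59 to -0.069, adjusted p = 0.0742), where it was called without sham replicate 5, at -0.95 (adjusted p = 0.0301), or without MI replicate 5, at -1.05 (adjusted p = 0.0335).

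The MEF2 factors, MADS-box proteins that read calcium signals, had the values nearest to 0 of the 10 in the remote zone. Mef2a had 149.8, 213 and 240.3 CPM in the sham and 116, 121 and 163 CPM in the MI infarct zone (log2 fold change -0.67, SE 0.13, adjusted p = 0.00173). It was lower in the border zone too (log2 fold change -0.46, SE 0.14, adjusted p = 0.0186). In the remote zone, with 186, 237 and 252 CPM in sham and 185, 207 and 246 CPM in MI, it was not called (log2 fold change -0.14, 95% interval -0.33 to 0.058, adjusted p = 0.28). Mef2c was called in no zone. Its levels ran 57.2, 80.0 and 96.1 CPM in the sham and 56.8, 68.3 and 76.4 CPM in the MI infarct zone (log2 fold change -0.24, 95% interval -0.51 to 0.024, adjusted p = 0.116). The remote zone medians were 88.6 and 90.5 CPM (log2 fold change 0.014, 95% interval -0.17 to 0.20, adjusted p = 0.92). Without sham replicate 5 it passed in the infarct zone alone, at -0.32 (adjusted p = 0.0145). Mef2d, a family member outside the 10, was lower in all 3 zones, at -0.82, -0.93 and -0.78 (adjusted p = 0.00183, 0.00428 and 0.00306).

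Hand2, a basic helix-loop-helix factor of the ventricle, was lower in all 3 zones. Its levels were 19.7, 42.1 and 48.6 CPM in the sham and 15.9, 21.4 and 35.7 CPM in the MI infarct zone (log2 fold change -0.68, SE 0.24, adjusted p = 0.0327). The remote zone levels were 33.6, 48.8 and 55.2 CPM in sham and 25.9, 31.2 and 37.2 CPM in MI (log2 fold change -0.62, SE 0.12, adjusted p = 0.00404), and the border zone gave a value lower as well (log2 fold change -0.78, SE 0.27, adjusted p = 0.0329). Its relative Hand1 did not pass the filter on low counts, with no group median above 0.136 CPM.

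Both metabolic members were lower in all 3 zones. Esrra was 2.52-fold lower in the infarct zone, from 124, 223 and 245 CPM to 53.0, 66.2 and 147 CPM (log2 fold change -1.33, SE 0.26, adjusted p = 0.00195). All 6 MI libraries of the border zone, at 63.1, 96.7 and 122 CPM, were below all 6 sham libraries, at 129, 237 and 249.9 CPM (log2 fold change -1.20, SE 0.19, adjusted p = 0.00119). The remote zone gave a smaller step, from 93.4, 179.8 and 237 CPM to 76.4, 102 and 141 CPM (log2 fold change -0.75, SE 0.20, adjusted p = 0.0168). Ppargc1a had the lowest fold change of the 10 in the infarct zone, 4.13-fold lower, with 33.6, 102 and 129.8 CPM in sham and 3.08, 14.8 and 68.4 CPM in MI (log2 fold change -2.05, SE 0.63, adjusted p = 0.0178). The MI libraries covered a wide range, and 2 of them lay above the lowest sham library. Ppargc1a was also lower in the border (log2 fold change -1.64, SE 0.46, adjusted p = 0.0151) and remote zones (log2 fold change -0.76, SE 0.22, adjusted p = 0.0225). Its paralog Ppargc1b fell in all 3 zones, by 1.91, 1.77 and 1.23 on the log2 scale, and so did Ppara, a partner receptor of PGC-1alpha, by 1.93, 1.86 and 1.07.

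Sham and MI libraries overlapped for most members in each zone. With all libraries, 0 of the 10 were without overlap in the infarct zone, 1 (Esrra) in the border zone and 1 (Gata4) in the remote zone, where 5.41%, 4.51% and 4.42% of all genes tested were lower in MI without overlap. Without sham replicate 5, the counts were 9, 7 and 7, all lower in MI, and the shares of all genes rose to 22%, 20.9% and 15.3%. The numbers of members called without it were 10, 9 and 8. The genes called also rose, to 10434, 9641 and 7177, of which those lower in MI were 30.7%, 28.9% and 22.8% of the genes tested, in place of 27.2%, 23.2% and 14.2%. Leaving out an animal that was the lowest of its group in many genes widens the difference by construction. The border count of 7 became 4 without sham replicate 1, 3, 4 or 6 or MI replicate 3. The remote count of 8 became 5 without sham replicate 2 or MI replicate 5. The infarct count of 9 became 6 without sham replicate 1, 2 or 3 or MI replicate 2, 5 or 6.

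**Figure D2:**
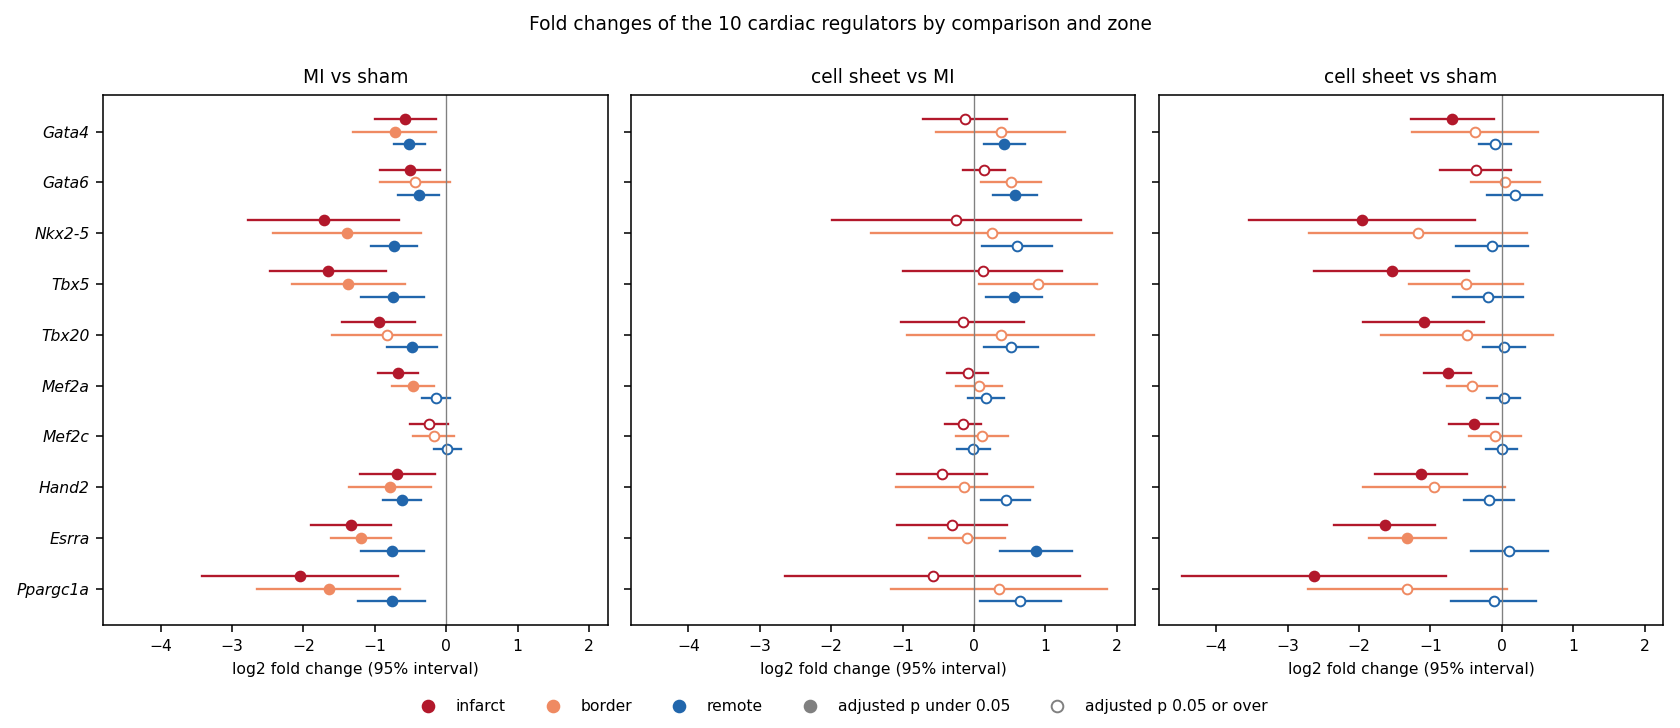
log2 fold change of each regulator with its 95% interval in the 3 comparisons, coloured by zone, with filled points for adjusted p under 0.05. The MI against sham points lie below 0 for all but Mef2c in the remote zone (0.014), and the cell sheet against MI points are filled in the remote zone alone, for Gata4, Gata6, Tbx5 and Esrra.

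Whether the difference between MI and sham was larger near the ligation than in the septum was tested as an interaction term, in a model that also held each animal. For 5 of the 10 the fold change was more negative in the infarct than in the remote zone, where 15.3% of the 16445 genes tested were called in that direction. They were Ppargc1a, with a difference of log2 fold changes of -1.75 (SE 0.50, adjusted p = 0.0193), Nkx2-5 at -1.29 (SE 0.45, adjusted p = 0.0468), Tbx5 at -0.99 (SE 0.25, adjusted p = 0.0108), Esrra at -0.66 (SE 0.22, adjusted p = 0.038) and Mef2a at -0.53 (SE 0.11, adjusted p = 0.00494). The 2 metabolic members were among these 5. For Gata4 the difference was -0.053 (95% interval -0.51 to 0.40), for Gata6 -0.091 (95% interval -0.35 to 0.17) and for Hand2 -0.07 (95% interval -0.45 to 0.31), so that differences of the size seen for Ppargc1a and Nkx2-5 lay outside their intervals. The values of Gata4, Gata6 and Hand2 were above 0 under library-size scaling, at 0.073, 0.035 and 0.056. Tbx20, at -0.46 (95% interval -1.02 to 0.10), and Mef2c, at -0.24 (95% interval -0.51 to 0.04), were not called. Of all genes called 47.0% were higher, and 62.5% under that scaling, which moved the median of all genes by 0.13 and left 3 members called. The count was also 3 without sham replicate 1, 2, 3, 5 or 6 or MI replicate 2, 5 or 6, and 1 (Mef2a) when the animal was not a term of the model. Between the border and remote zones 0 of the 10 were called by edgeR, as were 0% of 16475 genes, with 2 members and 3995 genes at an unadjusted p under 0.05 and, by DESeq2, 0 members and 1411 genes.

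The second comparison set the cell sheet-treated group against the untreated MI group. In the remote zone 4 of the 10 regulators were higher with the cell sheet (Gata4, Gata6, Tbx5 and Esrra), where 10.3% of the 15374 genes tested were called higher, and the median log2 fold change of the 10 was 0.54 beside 0.01 for all genes tested. Of the called genes 60.2% were higher, and 48.5% under library-size scaling, which left 2 members called. In the infarct and border zones none was called. The cell sheet and sham groups are compared further down with the same cell sheet libraries, so the comparisons share samples.

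Esrra had the highest fold change, with 76.4, 102 and 141 CPM in MI and 86.8, 197 and 264 CPM in the cell sheet group (1.82-fold, log2 fold change 0.87, SE 0.23, adjusted p = 0.0261). Gata6 rose from 66.0, 72.8 and 79.0 CPM to 68.4, 111 and 147 CPM (log2 fold change 0.57, SE 0.14, adjusted p = 0.0218). Gata4 rose from 90.3, 93.2 and 126 CPM to 100.3, 142 and 163 CPM (log2 fold change 0.43, SE 0.13, adjusted p = 0.0445). Tbx5 rose from 18.1, 25.4 and 29.8 CPM to 19.3, 39.5 and 44.1 CPM (log2 fold change 0.56, SE 0.18, adjusted p = 0.0488). For each of these 4, 5 of the 6 cell sheet libraries lay above the highest MI library, and the overlap of the groups came from cell sheet replicate 1. Of all genes tested, 13.1% were higher without overlap when that animal was left out, and 2.95% with all libraries.

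The other members did not pass. An unadjusted p under 0.05 was held by 8 of the 10 and by 5365 of the 15374 genes tested. Ppargc1a (log2 fold change 0.65, 95% interval 0.083 to 1.22, adjusted p = 0.0983), Nkx2-5 (log2 fold change 0.60, 95% interval 0.11 to 1.09, adjusted p = 0.0804), Tbx20 (log2 fold change 0.52, 95% interval 0.14 to 0.89, adjusted p = 0.0586) and Hand2 (log2 fold change 0.45, 95% interval 0.10 to 0.79, adjusted p = 0.0686) had intervals above 0. Mef2a (log2 fold change 0.17, 95% interval -0.081 to 0.42, adjusted p = 0.315) and Mef2c (log2 fold change -0.0096, 95% interval -0.24 to 0.22, adjusted p = 0.957) had intervals on both sides of 0.

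The count in the remote zone rested on single animals. Without cell sheet replicate 1, whose remote library had 46.3 CPM of Nkx2-5 and 41.0 CPM of Ppargc1a, the lowest of its group, 9 of the 10 were called, Ppargc1a at 0.83 (adjusted p = 0.00219) and Nkx2-5 at 0.77 (adjusted p = 0.000537) among them, and 6 of the 10 were higher without overlap between the groups. The genes called rose with them, from 2623 to 6450, and those called higher from 10.3% to 20.8% of the genes tested, while the share of all genes higher without overlap went from 2.95% to 13.1%. Here too, leaving out an animal that was the lowest of its group in most members widens the difference by construction. Without MI replicate 5, 0 of the 10 and 1096 genes were called, Gata6 at 0.54 (adjusted p = 0.0537) and Esrra at 0.82 (adjusted p = 0.064), and 0 were without cell sheet replicate 2. The count was 1 or 2 when replicate 1, 3 or 6 of the MI group, or 3, 4, 5 or 6 of the cell sheet group, was left out. The cardiomyocyte score moved with the members: its lowest, median and highest value was 11.18, 11.45 and 11.71 in the MI and 10.73, 12.06 and 12.18 in the cell sheet remote zone, with 10.73 in replicate 1, and 1 of its 10 genes was called higher. Fibroblast markers had 8.77, 9.77 and 10.21 and 8.09, 8.47 and 10.58, with 0 of 7 called higher and 1 lower, and mural markers, those of pericytes and smooth muscle, 5.13, 5.55 and 5.75 and 5.90, 6.21 and 6.83, with 2 of 6 higher. 1 of 6 endothelial, 1 of 7 macrophage and 1 of 3 T cell markers were lower, with 6.79% of all genes. Without cell sheet replicate 1, 5 of 10 cardiomyocyte and 3 of 6 mural markers were higher. In that fit 7 of 7 fibroblast, 4 of 5 myofibroblast, 6 of 7 macrophage, 2 of 6 endothelial and 4 of 4 T cell markers were lower, with 20.8% of all genes. Without MI replicate 5, 0 of 10 cardiomyocyte and 0 of 7 fibroblast markers were called in either direction. The part of these cell types in the result was not tested.

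In the border zone 0 of the 10 were called by edgeR, where 18% of the 16272 genes tested were, in either direction. 2 members and 5279 genes had an unadjusted p under 0.05, and DESeq2 also called 0 of the 10. Of the called genes 47.2% were higher, and 57.3% under library-size scaling, which called 1 member. The 2 members were Tbx5, at 4.11, 10.7 and 14.9 CPM in MI and between 6.10 and 28.4 CPM in the cell sheet group (log2 fold change 0.90, 95% interval 0.073 to 1.72, adjusted p = 0.122), and Gata6, at 32.5, 60.7 and 68.5 CPM and 54.03, 77.1 and 109 CPM (log2 fold change 0.52, 95% interval 0.10 to 0.94, adjusted p = 0.0848). Both were called without cell sheet replicate 1, Tbx5 at 1.08 (adjusted p = 0.0368) and Gata6 at 0.61 (adjusted p = 0.0416), where 8.86% of the genes tested were called higher. That library held 0.607 CPM of Nkx2-5 and 1.10 CPM of Ppargc1a, and its cardiomyocyte score of 3.76 was far below the next lowest of the group, 9.29. Nkx2-5 was spread over 0.607, 48.4 and 99.7 CPM there (log2 fold change 0.25, 95% interval -1.44 to 1.94, adjusted p = 0.858), and Hand2 was not called either (log2 fold change -0.13, 95% interval -1.09 to 0.82, adjusted p = 0.869). Adipocyte markers had a score of -3.21, -2.27 and 1.40 in MI and -2.97, 4.36 and 6.01 with the cell sheet, 2 of the 4 tested being called higher, 3 of 6 mural and 1 of 6 endothelial markers were higher, and 2 of 5 T cell markers were lower. Of all genes tested there, 8.47% were higher and 9.48% lower. The part of these cells was not tested.

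The infarct zone had 0 of the 10 and 0% of the 16196 genes tested called by edgeR, with 0 members and 1341 genes at an unadjusted p under 0.05. DESeq2 called 0 members and 56 genes. The fold changes of the members ran from Ppargc1a (log2 fold change -0.58, 95% interval -2.64 to 1.49, adjusted p = 0.897) to Gata6 (log2 fold change 0.14, 95% interval -0.15 to 0.44, adjusted p = 0.8). The wide interval of Ppargc1a went with levels of 1.43, 4.33 and 62.0 CPM in the cell sheet group, while Gata6, at 45.5, 56.8 and 77.0 CPM, had the narrower one. Hand2 lay between them (log2 fold change -0.45, 95% interval -1.08 to 0.18, adjusted p = 0.716). The cardiomyocyte score was 8.30, 10.04 and 11.50 in MI and 6.22, 7.99 and 11.26 with the cell sheet.

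Differences of the cell sheet effect between zones were tested in the same way. 0 of the 10 and 0% of genes were called between the infarct and remote zones, the border and remote zones, and the border and infarct zones (edgeR). At an unadjusted p under 0.05 there were 2, 1 and 0 members and 4190, 3430 and 2012 genes. DESeq2 called 2, 1 and 0 members and 1611, 1067 and 311 genes. That 4 members were called in the remote zone and none in the other two was thus not shown to be a difference between the zones by the main test.

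The third comparison, of the cell sheet-treated group with sham, shares the sham libraries with the first. In the infarct zone 9 of the 10 were lower in the cell sheet group, the exception being Gata6, against a background of 29.2% of 15687 genes. The lowest fold changes were those of Ppargc1a, at 1.43, 4.33 and 62.0 CPM (log2 fold change -2.63, SE 0.85, adjusted p = 0.0196), Nkx2-5, at 2.33, 11.7 and 85.8 CPM (log2 fold change -1.96, SE 0.73, adjusted p = 0.0358), and Esrra (log2 fold change -1.64, SE 0.32, adjusted p = 0.00148). Mef2a (log2 fold change -0.75, SE 0.15, adjusted p = 0.0016), Mef2c (log2 fold change -0.39, SE 0.16, adjusted p = 0.0461) and Gata4 (log2 fold change -0.69, SE 0.27, adjusted p = 0.0413) fell least among those called. Gata6, at 45.5, 56.8 and 77.0 CPM, was not called (log2 fold change -0.37, 95% interval -0.86 to 0.13, adjusted p = 0.183). Tbx5, Tbx20 and Hand2 fell by 1.54, 1.10 and 1.13 on the log2 scale. The count was 5 without sham replicate 1, 2 or 3 or cell sheet replicate 1, 3 or 4, and 10 without sham replicate 5, where 33.6% of genes were called lower. Library-size scaling moved the median of all genes by 0.26 here and 0.27 in the border zone, and called 5 members in the infarct zone. It raised the share of called genes that were higher from 49.5% to 66.3% and, in the border zone, from 46.8% to 71.2%.

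In the border zone 1 of the 10, Esrra, was lower against a background of 23.2% of 15960 genes (log2 fold change -1.32, SE 0.25, adjusted p = 0.00129). Its levels were 43.3, 91.4 and 131 CPM with the cell sheet. Mef2a stood at the threshold (log2 fold change -0.42, 95% interval -0.76 to -0.072, adjusted p = 0.0501). Ppargc1a (log2 fold change -1.32, 95% interval -2.72 to 0.075, adjusted p = 0.113), Hand2 (log2 fold change -0.95, 95% interval -1.95 to 0.052, adjusted p = 0.112) and Nkx2-5 (log2 fold change -1.17, 95% interval -2.70 to 0.36, adjusted p = 0.193) had wide intervals. Gata6 was near 0 (log2 fold change 0.049, 95% interval -0.43 to 0.53, adjusted p = 0.869). Without sham replicate 5 the count was 3 (Esrra, Mef2a and Hand2), where 28.7% of the genes tested were called lower. Without cell sheet replicate 1 it was 2 (Esrra and Ppargc1a), where 21.8% were, and it was 3 without cell sheet replicate 3. The remote zone had 0 of the 10 and 1 of 15157 genes (0.0066%) called by edgeR, with 0 members and 1520 genes at an unadjusted p under 0.05 and, by DESeq2, 0 members and 173 genes. The members ran there from Tbx5 (log2 fold change -0.19, 95% interval -0.68 to 0.29, adjusted p = 0.833) to Gata6 (log2 fold change 0.18, 95% interval -0.20 to 0.56, adjusted p = 0.794). A value that did not pass does not show equal levels.

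Because the sarcomere genes themselves fell after MI, each member was also set against them, as its log2 CPM minus the cardiomyocyte score of the same library, and tested with an exact permutation test over animals (2-sided, adjusted over 17743 genes). In the infarct zone the score was 10.80, 12.12 and 12.36 in sham and 8.30, 10.04 and 11.50 in MI, and all 10 of its genes were lower. Relative to it, 84.1% of all genes differed, nearly all of them higher, so that being higher sets no member apart. 6 members were higher (Gata4, Gata6, Tbx20, Mef2a, Mef2c and Hand2), and Ppargc1a was lower, at -5.44 ± 0.19 in sham and -5.99 ± 0.58 in MI (SD, n = 6), a difference of -0.54 (adjusted p = 0.0466). The call of Ppargc1a stood near the threshold. It was lost with Tnnt2 alone as the reference (-0.49, adjusted p = 0.0833), with the summed CPM of the markers (-0.42, adjusted p = 0.118) and with an offset of 1 CPM (-0.43, adjusted p = 0.0607), and when sham replicate 1, 2, 3, 4 or 6 or MI replicate 2, 3 or 5 was left out. Of the 14921 genes called, 146 were lower. Nkx2-5 was not called, at -5.43 ± 0.061 in sham and -5.41 ± 0.37 in MI (SD, n = 6), a difference of 0.022 (adjusted p = 0.889), and neither were Tbx5, at 0.36 (adjusted p = 0.383), and Esrra, at 0.66 (adjusted p = 0.144). Mef2c stood 1.83 and Gata6 1.60 above the sarcomere genes' change, both below the median of all genes, 2.08.

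**Figure D3:**
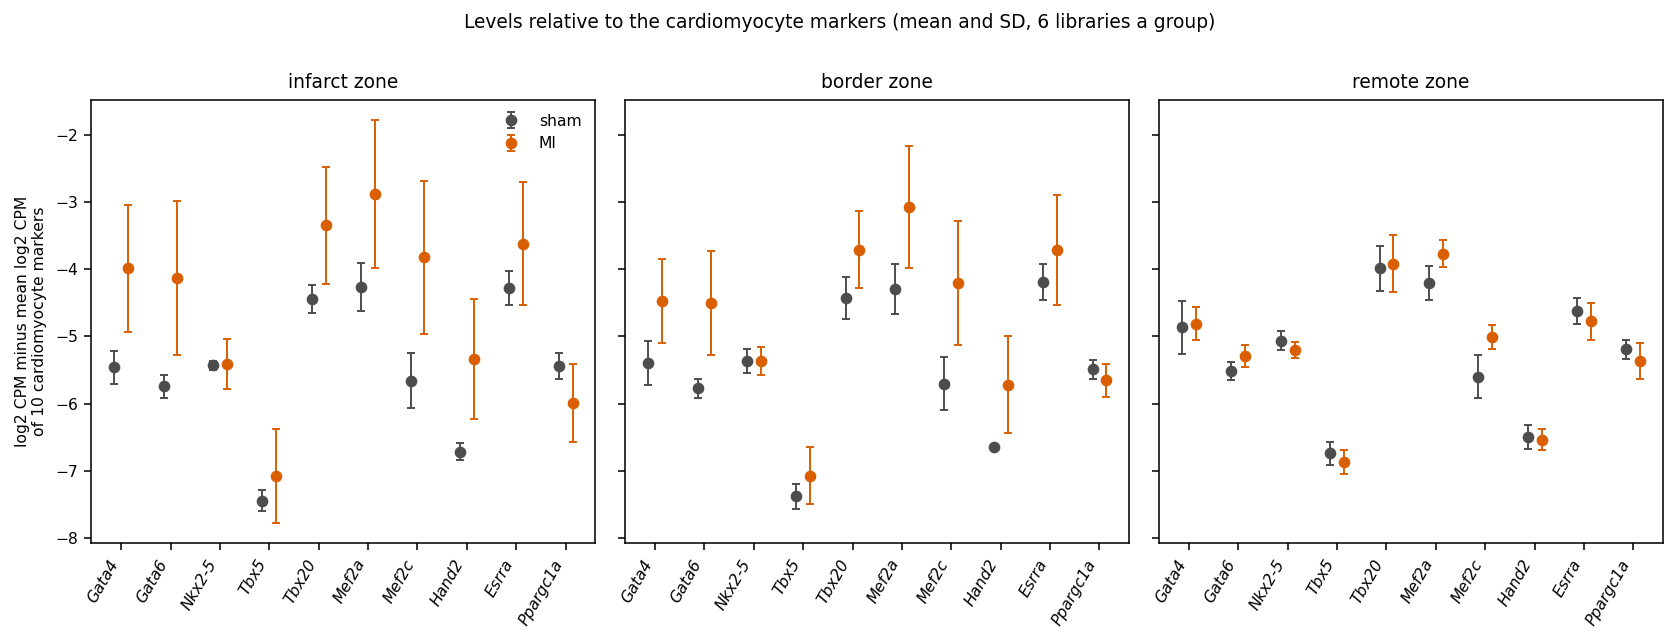
Level of each regulator relative to the cardiomyocyte markers (log2 CPM minus the mean log2 CPM of 10 sarcomere genes) in sham and MI, as mean and SD of 6 libraries, 1 panel a zone. In the infarct zone the MI mean of Ppargc1a (-5.99) lies below that of sham (-5.44), those of Nkx2-5 nearly coincide (-5.41 and -5.43), and the other MI means lie above.

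In the border zone the same 6 members were higher relative to the sarcomere genes, against a background of 76.7% of genes in either direction, while 4 were not called. These were Nkx2-5 at 0.0048 (adjusted p = 0.967), Tbx5 at 0.31 (adjusted p = 0.191), Esrra at 0.48 (adjusted p = 0.255) and Ppargc1a at -0.16 (adjusted p = 0.202). All 6 members called higher in the border zone were below the median of all genes there, 1.70. In the remote zone, where 4 of the 10 sarcomere genes were lower, 2 members differed, Mef2c by 0.59 (adjusted p = 0.0429) and Mef2a by 0.44 (adjusted p = 0.0454), both higher, against a background of 27.2%. The median of all genes was 0.57 there, so Mef2c was near it and Mef2a below it. The remote count was 0 without any 1 of sham replicates 1, 2, 3, 4 and 6 or MI replicates 3, 4, 5 and 6, and the border count was 2 without sham replicate 3. The other 8 lay between -0.17 (Ppargc1a) and 0.22 (Gata6), with Gata4 at 0.049 (adjusted p = 0.85) and Hand2 at -0.035 (adjusted p = 0.786). Between the cell sheet and MI groups 0 of the 10 were called on this scale in the infarct, border or remote zone (0%, 0% and 0% of genes), with 2, 3 and 2 members and 795, 452 and 3387 genes at an unadjusted p under 0.05. The remote zone differences ran from -0.35 (adjusted p = 0.31) for Mef2c to 0.48 (adjusted p = 0.198) for Esrra, and 3 members were called in the remote zone without cell sheet replicate 1. Between the cell sheet group and sham 9 of the 10 were called in the infarct zone (95.6% of genes) and 9 in the border zone (78.1%), all higher, Ppargc1a and Esrra being the respective exceptions. The border count was 0 without sham replicate 1, 2, 3, 4 or 6. The remote zone had 0 (0% of genes), with 2 members and 1423 genes at an unadjusted p under 0.05.

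**Figure D4:**
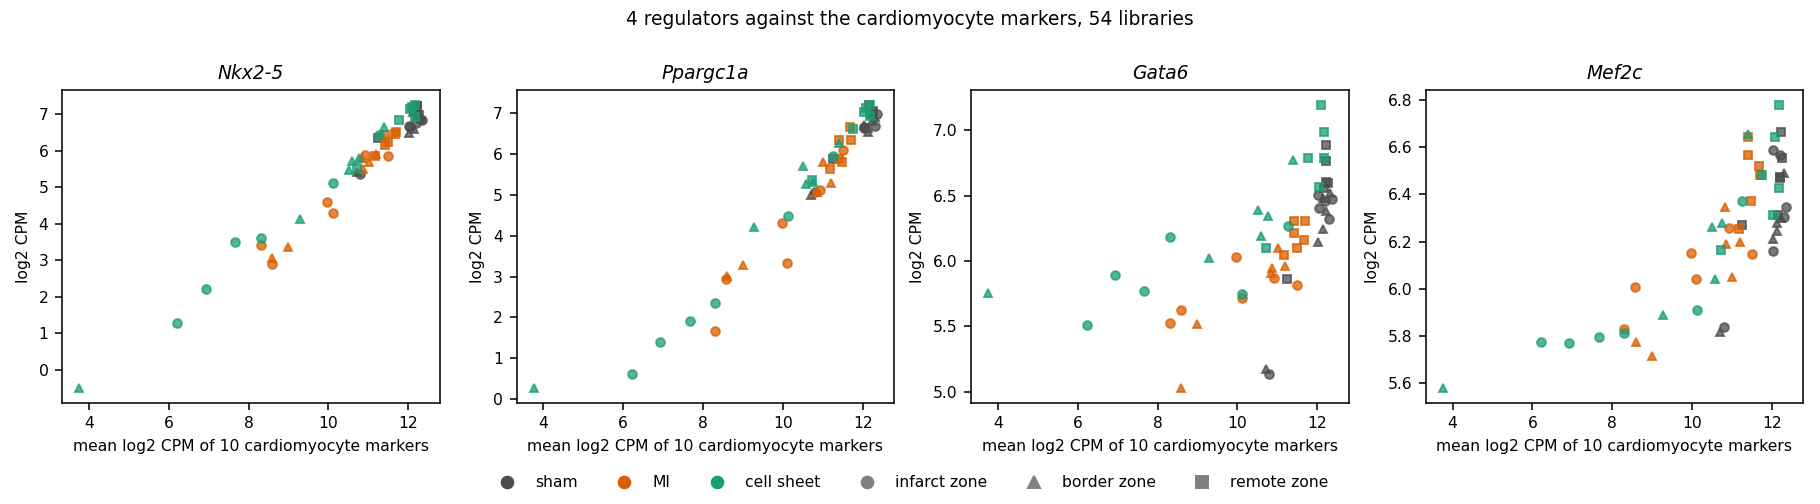
log2 CPM of Nkx2-5, Ppargc1a, Gata6 and Mef2c against the cardiomyocyte score (mean log2 CPM of 10 sarcomere genes) in 54 libraries, coloured by treatment, with a symbol for each zone. Nkx2-5 and Ppargc1a follow the score along nearly the whole range, while Gata6 and Mef2c span a narrower range. The lowest score, 3.76, is that of 1 cell sheet border library, and the next is 6.22, in a cell sheet infarct library.

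Over the 54 libraries Hand2, Ppargc1a and Nkx2-5 followed the cardiomyocyte score most closely (Spearman's rho 0.95, 0.95 and 0.95), then Esrra (0.91), Mef2a (0.91) and Tbx5 (0.91), and Mef2c (0.78) and Gata6 (0.79) least. Among the 45 pairs of members, Gata4 and Tbx20 were most alike (0.96), followed by Nkx2-5 and Tbx5 (0.96) and Nkx2-5 and Ppargc1a (0.96), and Mef2c and Esrra least (0.63). Of 13290 other genes with a mean log2 CPM of at least 1, those most like Nkx2-5 were Kcng2 (0.98), a potassium channel subunit, and Slc4a3 (0.98), an anion exchanger. Ppargc1a was followed most closely by Txlnb (0.99) and Mtm1 (0.98), Tbx5 by Ablim1 (0.98) and Wipf3 (0.98), and Gata4 by Shroom3 (0.97) and Cdh2 (0.97), the N-cadherin of the intercalated disc. Tbx20 was most like Gata4 (0.96) and Cdh2 (0.95), Mef2a like Sgcb (0.97), a sarcoglycan, and Veph1 (0.97), and Mef2c like Ctnna3 (0.90), an alpha catenin, and Ankrd28 (0.89). Gata6 was nearest to Kif21a (0.95) and Tmem245 (0.94), Hand2 to Pabpc4 (0.96) and Vegfb (0.95), and Esrra to Banf1 (0.97) and Mrpl3 (0.97), a mitochondrial ribosomal protein. These values describe 54 libraries that share 18 animals, 3 zones and 3 treatments.

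Ranked by group median, 6 of the 10 were highest in the sham remote zone (Gata4, Nkx2-5, Tbx5, Tbx20, Hand2 and Ppargc1a), Gata6 and Mef2a in the cell sheet remote zone, Mef2c in the MI remote zone and Esrra in the sham border zone, at 237 CPM. The lowest median was that of the cell sheet infarct zone for 8 of them and of the MI infarct zone for Gata6 and Tbx5. For every member, each of the 9 groups overlapped with its neighbours in that order, so the order is not resolved from step to step.

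Other transcription factors of the heart changed in both directions. Of a list of 28, 5 rose and 13 fell of 25 tested in the MI infarct zone, 5 rose and 11 fell of 26 in the border zone and 4 rose and 10 fell of 25 in the remote zone. Of all genes tested, 22.7%, 18.4% and 11.7% rose and 27.2%, 23.2% and 14.2% fell in these zones. The risers of this list were near the share of all genes in the infarct and border zones. Klf15, a repressor of hypertrophic growth, fell most in the infarct zone (log2 fold change -1.85, SE 0.47, adjusted p = 0.00765), followed by Gata5 (log2 fold change -1.73, SE 0.40, adjusted p = 0.00448), and Prox1 fell most in the remote zone (log2 fold change -1.25, SE 0.24, adjusted p = 0.00342). The factors that rose included Nfatc4, which answers to calcineurin (log2 fold change 1.65, SE 0.15, adjusted p = 4.33e-05), and Tbx18, known from the epicardium and mural cells (log2 fold change 1.25, SE 0.17, adjusted p = 0.000254). With the cell sheet, 7 rose and 0 fell of 25 tested in the border zone against MI, beside 8.47% and 9.48% of all genes. At the head were Tbx2 (log2 fold change 1.06, SE 0.15, adjusted p = 0.00114) and Tbx3 (log2 fold change 0.77, SE 0.16, adjusted p = 0.00773), repressors of the chamber programme. Of those tested in the remote zone 7 rose and 0 fell of 24, and Prox1 (log2 fold change 1.203, SE 0.29, adjusted p = 0.0193) and Klf15 (log2 fold change 1.16, SE 0.28, adjusted p = 0.0174) had the highest fold changes.

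Of 22 proteins that work with the GATA, NKX and MEF2 factors, 2 rose and 7 fell of 22 in the MI infarct zone, 1 rose and 7 fell of 22 in the border zone and 0 rose and 6 fell of 22 in the remote zone. Of all genes tested, 22.7%, 18.4% and 11.7% rose and 27.2%, 23.2% and 14.2% fell in these zones. Smyd1, a muscle methyltransferase, was the lowest in all 3 (-1.76, -1.67 and -0.94 on the log2 scale, adjusted p = 0.0127, 0.0121 and 0.00527), while Hdac4, a deacetylase that holds MEF2 factors silent, rose in the infarct zone (log2 fold change 0.73, SE 0.18, adjusted p = 0.00641). With the cell sheet, 7 rose and 1 fell of 22 in the border zone, beside 8.47% and 9.48% of all genes. Zfpm2, the FOG2 partner of GATA4, rose there (log2 fold change 0.55, SE 0.10, adjusted p = 0.00392) and Hopx fell (log2 fold change -0.78, SE 0.15, adjusted p = 0.00406). Of those tested in the remote zone 3 rose and 2 fell of 22, with Smyd1 the highest (log2 fold change 1.14, SE 0.27, adjusted p = 0.0165).

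Of 27 other metabolic transcription factors and coregulators, 3 rose and 15 fell of 27 in the MI infarct zone, 1 rose and 17 fell of 27 in the border zone and 1 rose and 15 fell of 27 in the remote zone. Of all genes tested, 22.7%, 18.4% and 11.7% rose and 27.2%, 23.2% and 14.2% fell in these zones. Perm1, a muscle partner of PGC-1alpha and ERR receptors, fell most in the infarct (log2 fold change -2.59, SE 0.73, adjusted p = 0.0117) and border zones (log2 fold change -2.09, SE 0.50, adjusted p = 0.00763) and Ppargc1b in the remote zone (log2 fold change -1.23, SE 0.23, adjusted p = 0.00318). Esrrg, the ERR receptor most like ERRalpha in the heart, was lower in all 3 (-1.73, -1.32 and -0.63). With the cell sheet, 11 rose and 1 fell of 27 in the remote zone against MI, with Ppargc1b (log2 fold change 1.28, SE 0.25, adjusted p = 0.00962) and Ppara (log2 fold change 1.19, SE 0.24, adjusted p = 0.0104) at the head. Of those tested in the border zone 5 rose and 2 fell of 27, beside 8.47% and 9.48% of all genes. Pparg, the receptor of fat cells, was at the head (log2 fold change 1.63, SE 0.41, adjusted p = 0.0167), beside the adipocyte markers given above. In the remote zone, where 10.3% of all genes rose and 6.79% fell with the cell sheet, the counts of these 3 lists also moved with single animals. Without MI replicate 5, 4 of 24 heart factors rose, 2 of 22 partner proteins rose and 1 fell, and 4 of 27 metabolic factors rose and 1 fell, beside 4.59% and 2.47% of all genes.

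Genes that these regulators are known to act on were mostly lower after MI. The cardiomyocyte score was lower as well, with medians of 12.12, 12.14 and 12.21 in sham and 10.04, 10.85 and 11.45 in MI (infarct, border and remote zones). Actc1, Tnni3, Tnnt2, Tnnc1 and Myl2 belong both to that score and to the first list below. The part of cardiomyocyte content in these falls was not tested. Of 22 sarcomere, conduction and natriuretic peptide genes, 1 rose and 18 fell of 22, 0 rose and 17 fell of 22 and 1 rose and 11 fell of 22 in the MI infarct, border and remote zones, with medians of -1.66, -1.43 and -0.55 on the log2 scale. Myh6, the fast myosin of adult rat ventricle, fell most (log2 fold change -2.66, SE 0.77, adjusted p = 0.0136 in the infarct zone), while Nppa, the atrial natriuretic peptide, rose in the remote zone (log2 fold change 2.07, SE 0.72, adjusted p = 0.0494), from a median of 673 to 3729 CPM. Of 26 oxidative genes, 0 rose and 25 fell of 26, 0 rose and 25 fell of 26 and 0 rose and 20 fell of 26, with medians of -1.80, -1.48 and -0.82. Of all genes tested, 27.2%, 23.2% and 14.2% fell in the infarct, border and remote zones. Pdk4, the kinase that shuts pyruvate out of oxidation, was lower in each zone (-2.43, -2.05 and -1.36). With the cell sheet, 8 of 22 and 12 of 26 rose and none fell in the remote zone against MI, where 10.3% of all genes rose. The counts were 5 of 22 and 4 of 26, with 4.59% of all genes higher, without MI replicate 5, and 14 (with 2 lower) and 22, with 20.8%, without cell sheet replicate 1. With the replicate number as a block 2 genes of the whole table were called there. In the fit of all libraries without that block, Acsl1, which activates fatty acids, was the highest of the oxidative genes (log2 fold change 1.35, SE 0.30, adjusted p = 0.014). Neither list had a call against MI in the infarct zone, where 0 of the 16196 genes tested were called. Against sham neither had a call in the remote zone, where 1 of 15157 genes was called.

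Markers of other cells moved with MI in all zones. In the MI infarct zone 5 of 7 fibroblast, 5 of 5 myofibroblast, 4 of 6 mural and 4 of 7 macrophage markers rose and 1 of 6 endothelial markers fell, and 3 of 6 epicardial and mesothelial markers rose and 1 fell. The myofibroblast score went from 2.44, 2.78 and 4.11 in sham to 6.41, 7.08 and 7.73 in MI. Border zone counts of risers were 6, 5, 2 and 5, with 1 endothelial marker lower, and in the remote zone 6, 5, 2 and 2, with 1 mural marker lower. Of all genes tested, 22.7%, 18.4% and 11.7% rose in the infarct, border and remote zones. Of the 5 T cell markers none was called in these comparisons, which held sham replicate 5. Their score had medians of 0.52, 0.045 and 0.20 in the sham and 3.07, 3.16 and 1.85 in the MI infarct, border and remote zones. The highest sham values, 6.40, 6.66 and 6.12, were those of that animal. The lack of a call thus does not show that these markers stayed level. Adipocyte markers were not tested there: Adipoq was at 0 in 23 of the 54 libraries and Retn in 28. Of the atrial markers 1 was called higher in the infarct and 1 lower in the border zone, and of the skeletal muscle markers 1 was higher in each of these zones. Their part in the levels of the regulators was not tested.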

How the data were processed

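Poly-A RNA of 54 tissue pieces from 18 rats was sequenced in read pairs, and the authors deposited raw counts per gene, 1 table a library, from reads aligned to the rat genome mRatBN7.2. The counting tool and its strand setting were not given in the sources used here. Each table also held 5 summary lines that name no gene, with 17% to 42.8% of its counts, and these entered neither the library sizes nor any test. Replicates are named technical in the labels, but the study's methods describe 6 hearts a group, so each library was taken as 1 animal and zone. No 2 libraries of a group were identical or agreed within sampling noise.

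Counts were scaled by TMM and tested gene by gene with edgeR 4.0.16 (limma 3.58.1, R 4.3.3), by the quasi-likelihood test after filterByExpr, on the 12 libraries of each of 9 comparisons. Adjusted p-values are Benjamini-Hochberg over all genes tested. Differences between zones (5 tests) had the animal as a block. Levels are CPM, with 0.1 added before log2. Levels relative to the cardiomyocyte markers were compared by exact 2-sided permutation over 924 splits of 12 animals, whose smallest p is 0.00216. Their p-values were adjusted over all genes, not over the members and comparisons alone as first planned. The scripts were tested on simulated data. Alternatives were DESeq2 1.42.0, library-size scaling, other filters and fits, a replicate block, and each animal left out. The counts over lists and over all genes without sham replicate 5, cell sheet replicate 1 or MI replicate 5 were added after seeing the data.

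The 10 members, the gene lists and the tests were chosen with earlier results of these data known. Genes outside the members were named by a rule: from each list and comparison at most 2 rises and 2 falls, those with the largest absolute log2 fold change among genes called, a few fixed partner and target genes, and for each member the 2 genes with the highest Spearman's rho.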

Additional observations from a re-analysis of the deposited data

Results flagged for a closer look

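In 29 of the 90 groups of 6 libraries (10 genes in 9 groups) the lowest or highest library lay far from the others, its gap to the nearest library divided by the range of the group being above Dixon's 95% critical value. Chance gives about 1 in 20 groups. Of these, 22 were the library of sham replicate 5, the lowest of its group. In the sham infarct zone the ratio was 0.667 for Gata4, 0.867 for Gata6, 0.855 for Nkx2-5, 0.655 for Tbx5, 0.734 for Mef2a, 0.697 for Hand2, 0.816 for Esrra and 0.812 for Ppargc1a. In the sham border zone it was 0.722 for Gata6, 0.656 for Nkx2-5, 0.705 for Tbx5, 0.669 for Mef2a, 0.87 for Hand2, 0.73 for Esrra and 0.811 for Ppargc1a. In the sham remote zone it was 0.682 for Gata6, 0.7 for Nkx2-5, 0.779 for Tbx5, 0.705 for Mef2a, 0.653 for Hand2, 0.649 for Esrra and 0.834 for Ppargc1a. Genes of 1 library are not independent of one another, so these are mostly 1 animal seen many times.

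Cell sheet replicate 1 was the lowest of its group by the same measure in the border zone for Nkx2-5 (0.649) and Ppargc1a (0.659), and in the remote zone for Nkx2-5 (0.759), Tbx5 (0.799), Mef2a (0.659) and Ppargc1a (0.683). Cell sheet replicate 6 was the highest of its infarct zone group for Mef2c (0.762).

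The fold change between MI and sham differed between the infarct and remote zones (edgeR, interaction of treatment and zone) for Nkx2-5 by -1.287, Tbx5 by -0.9912, Mef2a by -0.528, Esrra by -0.6602 and Ppargc1a by -1.754 on the log2 scale, all more negative in the infarct zone.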

How the results depend on the processing

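Of 140 log2 fold changes of members, 104 kept their sign under every alternative run, and of 90 differences relative to the cardiomyocyte markers 76 did. None of the 43 and 33 that were called changed sign. The counts of members called were less stable, and the cause of each change was not tested.

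Under library-size scaling the members called were 4 in the border zone for MI against sham, 1 in the border and 2 in the remote zone for cell sheet against MI, 5 in the infarct zone for cell sheet against sham, and 3 for the difference of MI effects between infarct and remote zones. Among the single log2 fold changes given in the text, those that changed sign under it were those of Mef2c for MI against sham (0.028 in the infarct and 0.019 in the border zone) and the differences between infarct and remote zones of Gata4 (0.073), Gata6 (0.035) and Hand2 (0.056). With no filter on low counts 2 members were called for cell sheet against MI in the remote zone. With all 18 libraries of a zone in 1 fit the members called were 5 in the infarct and 4 in the border zone for MI against sham and 2 in the border zone for cell sheet against sham, where the remote zone had 20 genes called. DESeq2 called 2 members in the border zone for cell sheet against sham, and 56 genes for cell sheet against MI in the infarct zone and 173 for cell sheet against sham in the remote zone. For differences between zones it called 1411 genes for MI (border and remote), and for the cell sheet 1611 genes and 2 members (infarct and remote), 1067 genes and 1 member (border and remote) and 311 genes (border and infarct).

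Replicate numbers did not pair animals across treatments: 1 to 3 of 6 pairs of a comparison had correlated deviations above 0.1, and 1 to 5 of 12 libraries correlated best with their own number. With the replicate number as a block, the members called were 1 in the border zone for MI against sham and 0 in the remote zone for cell sheet against MI, and the genes called were 4193 for MI against sham in the border zone, 1214 and 2 for cell sheet against MI in the border and remote zones and 0 for cell sheet against sham in the remote zone. The same number in different zones of a treatment was taken from the labels as the same heart. Deviations of such libraries correlated above 0.1 in 11 (infarct and border), 14 (infarct and remote) and 13 (border and remote) of 18 animals. The medians were 0.25, 0.31 and 0.283, and the lowest value -0.563. Without the animal as a block, the difference between infarct and remote zones had 1 member and 1431 genes called for MI, and the cell sheet differences had 6 genes (border and remote) and 80 genes (border and infarct).

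With each animal left out in turn, the members called for MI against sham ran from 4 to 9 in the border and 5 to 8 in the remote zone, with 2744 to 7177 genes in the latter. For cell sheet against MI they ran from 0 to 2 in the border and 0 to 9 in the remote zone, with 1941 to 3083 and 1096 to 6450 genes, and for cell sheet against sham from 5 to 10 in the infarct and 1 to 3 in the border zone, with 0 to 17 genes in the remote zone. For differences between infarct and remote zones the members called ran from 3 to 5 (MI) and 0 to 1 (cell sheet, 0 to 2011 genes), and for border and remote zones the genes called ran from 0 to 1539 (MI) and 0 to 216 (cell sheet). Among the single log2 fold changes given in the text, those that changed sign, none of them called, ran from -0.021 to 0.056 for Mef2c (MI against sham, remote), -1.79 to 0.12 for Ppargc1a (cell sheet against MI, infarct), -0.14 to 0.52 for Nkx2-5 and -0.47 to 0.094 for Hand2 (the same, border), -0.074 to 0.044 for Mef2c (the same, remote), -0.10 to 0.14 for Gata6 (cell sheet against sham, border), and -0.18 to 0.080 for Gata4 and -0.17 to 0.046 for Hand2 (MI, infarct against remote).

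Relative to the cardiomyocyte markers, leaving out 1 animal gave 2 to 7 members called for MI against sham in the border and 0 to 3 in the remote zone, 0 to 3 for cell sheet against MI in the remote zone and 0 to 10 for cell sheet against sham in the border zone. Among the single differences given in the text, those that changed sign ran from -0.082 to 0.10 and -0.061 to 0.060 for Nkx2-5 in the infarct and border zones and, in the remote zone, from -0.025 to 0.21 for Gata4, -0.071 to 0.18 for Tbx20 and -0.075 to 0.029 for Hand2. With the summed CPM of the markers as reference 1 member was called in the remote zone, and with Tnnt2 alone Hand2 was at 0.017 there.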
